A study of Rattus norvegicus with 4 samples.

Results

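The cytosolic ribosomal protein genes are the nuclear genes for the proteins of the ribosomes that work in the cytoplasm. Members were the protein-coding genes of the deposited count table whose symbol follows the Rpl, Rps or Rplp naming pattern and whose raw counts summed to at least 1000 over the 4 libraries. This gave 67 genes of 32545 in the table. Of 101 protein-coding genes with such a symbol, 34 fell under the count minimum. Members were thus chosen by their names and selected on their summed counts over all libraries, so the high levels given here are a description and were not tested. Just inside it lay Rpl7a on chromosome 3 with 2489 counts, Rpl8 with 2074 and the Rplp1 row on chromosome 17 with 1462. Just outside lay the Rpl32 row on chromosome 6 with 959 counts, Rpl5l1 with 846 and Rpl31l4 with 654.

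The study measured polyadenylated RNA of S16, a Schwann cell line of the rat, in cultures transfected with siRNAs. The control group was transfected with the IDT negative control siRNA DS NC1 and the other group with siRNAs against both Nr2f1 and Nr2f2, the genes of COUP-TFI and COUP-TFII, nuclear receptors with no settled ligand. There were 2 libraries in each group, all from cultures of the same line transfected with the same lipid reagent, and no untransfected cells are among them. The labels give no time after transfection, and nothing says that the libraries of a group came from separate cultures, so p-values measure the spread between these samples, which may be technical. The columns of the count table name the group and carry numbers that do not match the replicate numbers of the sample titles, so the libraries are called A and B in column order, and values of a group are given in that order.

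A mammalian ribosome has a small subunit that reads the mRNA and a large subunit that joins amino acids, and each protein of either subunit is present in about equal amount in the finished particle. Their mRNAs are among the most abundant in dividing cells. Most begin with a pyrimidine tract at the 5′ end, the TOP motif, through which the growth kinase mTORC1 and the RNA-binding protein LARP1 set how strongly they are translated. Schwann cells use this machinery to make large amounts of myelin protein.

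The tract lies at the start of the mRNA, so the windows around the starts of 8 of the 11 genes found lower (below) are shown, with 3 genes that were not called for contrast: Rpl41, the member with the highest level per length, Rplp0, the scaffold of the stalk, and Rpl29. Each window holds 25 bases before and 25 from the RefSeq start on, on the gene's strand of build GRCr8, 5′ to 3′. Capitals mark the longest run of C and T anywhere in the window. Such a run need not begin at the start and is not shown to be a TOP tract. Relative to the start it begins at base 15 in Rps16, −13 in Rpl35 and −12 in Rpl29. The 3 other lower genes, Rps29, Rpl30 and Rpl37, had no window on the matching chromosome.
Rps27 (chr2:177964582-177964631, minus strand): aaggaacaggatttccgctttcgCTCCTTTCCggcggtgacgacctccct
Rpl37a (chr9:81748066-81748115, plus strand): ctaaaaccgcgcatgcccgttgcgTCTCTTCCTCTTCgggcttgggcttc
Rps10 (chr20:5700720-5700769, minus strand): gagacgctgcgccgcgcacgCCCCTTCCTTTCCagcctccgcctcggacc
Rps16 (chr1:92770633-92770682, plus strand): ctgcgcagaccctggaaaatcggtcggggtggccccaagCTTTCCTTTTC
Rps15 (chr7:10068091-10068140, minus strand): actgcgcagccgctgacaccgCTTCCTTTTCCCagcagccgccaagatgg
Rpl35 (chr3:43165897-43165946, minus strand): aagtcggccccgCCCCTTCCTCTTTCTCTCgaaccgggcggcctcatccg
Rpl27a (chr1:172974548-172974597, plus strand): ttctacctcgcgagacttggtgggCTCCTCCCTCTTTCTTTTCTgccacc
Rpl28 (chr1:78083508-78083557, minus strand): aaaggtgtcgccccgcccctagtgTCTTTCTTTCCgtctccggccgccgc
Rpl41 (chr7:1563473-1563522, minus strand): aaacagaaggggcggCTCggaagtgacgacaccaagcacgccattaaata
Rplp0 (chr12:46718366-46718415, minus strand): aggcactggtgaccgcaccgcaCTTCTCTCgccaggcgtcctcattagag
Rpl29 (chr8:115947618-115947667, plus strand): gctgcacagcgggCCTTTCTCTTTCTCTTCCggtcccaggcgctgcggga

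Of 64 distinct symbols among the members, 47 had a single RefSeq promoter entry on the matching chromosome. In 35 of these 47 (74.5%) a run of at least 8 C or T lay within 25 bases of the start, against 18.9% of 21851 rat promoters searched in the same way. Such a run, wherever it began in the window, was present in 8 of 8 lower genes and in 27 of 39 genes that were not called. The RefSeq start base itself was C or T in 32 of 47 genes (68.1%), against 36.8% of all promoters. It was C or T in 7 of 8 lower genes and in 25 of 39 that were not called. CCGGAA, the core bound by ETS factors, was found on either strand within the 300-base promoter windows of 23 of 47 genes (48.9%), against 17.7% of all promoters. TATAAA was found on either strand in 6 of 47 (12.8%), close to the 13.01% of all promoters. AGGTCA, the nuclear receptor core that NR2F proteins bind as a repeat, was found on either strand in 6 of 47 (12.8%) against 14.2% of all, and in 0 of the 8 lower genes. Its direct repeat, AGGTCA followed after 1 base by AGGTCA, was found in 0 of the 47 and in 0.023% of all promoters. A match to these letters is not a binding site, and lack of a match says only that the letters are not in this window.

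After Nr2f1/Nr2f2 siRNA, 11 of the 67 genes were lower, 0 were higher and 56 did not pass the test (edgeR's quasi-likelihood test, Benjamini-Hochberg adjusted over 13018 genes, threshold 0.05). All 67 members were among the genes tested. The lower genes were Rps29, Rps27, Rpl37, Rpl37a, Rpl30, Rps10, Rps16, Rps15, Rpl35, Rpl27a and Rpl28. They were 16.4% of the members, while 10% of all tested genes were called lower, 8.05% were called higher and 18.1% were called in either direction. Among the 2223 genes above 100 CPM (the usual count unit of RNA-seq, relative to the scaled total of the library) 18.8% were lower and 8.50% higher, and 58 of the members lie in that range. The share of members called lower is therefore near that of other abundant genes. At an unadjusted p under 0.05, 21 members were lower and 0 higher. DESeq2 called 15 members lower and none higher. At an adjusted p under 0.05, 15 members were lower and 0 higher in the authors' deposited table, with all 11 among them. The authors also used DESeq2 on these libraries, so their table is not a separate check of the DESeq2 result.

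The changes were small except in a few genes. The log2 fold change (siRNA over control) was below 0 in 57 members and above 0 in 10, with a median of −0.14, against 0.01 over all tested genes and −0.06 over the genes above 100 CPM. It lay within 0.5 of 0 in 62 members, and in 49 members the whole 95% interval lay within 0.5 of 0. One gene alone, Rps29, changed by more than 1 on the log2 scale. In 36 members both siRNA libraries lay below both control libraries, against 28.5% of all tested genes, and in 3 (Rpl19, Rpl7l1 and the Rps10 row on chromosome 6) both lay above, against 30.1%. In the other 28 the groups overlapped.

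The members did not deviate evenly over the libraries. The highest of the 4 CPM values came from control library B in 51 members, from control library A in 11, from siRNA library B in 3 and from siRNA library A in 2. The median log2 deviation of the members from their own mean was 0.01 in control library A, 0.14 in control library B, −0.03 in siRNA library A and −0.09 in siRNA library B. Control library B stands apart from its own group in these genes, while control library A lies near the siRNA libraries. Without control library B the median log2 fold change of the members was −0.09, with 9 lower and 1 higher, and without control library A it was −0.22, with 19 lower. Library B was also the shallowest, with 21556011 counts against 25618234 to 43057750 in the others, and had the lowest share of mitochondrially encoded counts, 3.63% against 4.05% to 4.70%. With every library thinned to this depth 11 members were again lower. With ribosomal protein and mitochondrial genes left out of the scaling 11 were lower as well, with a median log2 fold change of −0.14.

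**Figure D1:**
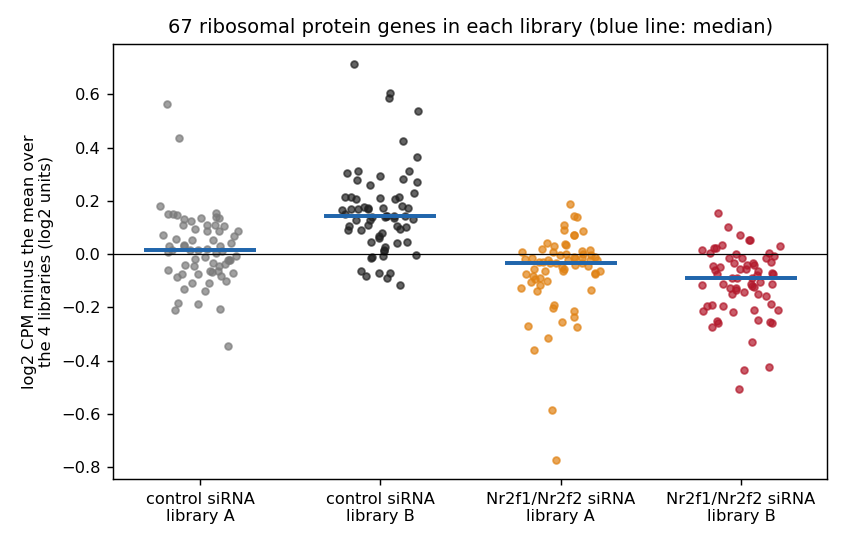
Each library's log2 deviation of every ribosomal protein gene from that gene's mean over the 4 libraries, with the median drawn. Control library B has a median of 0.14, above control library A at 0.01 and the siRNA libraries at −0.03 and −0.09.

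As a share of all counts, the 67 genes held 2.204% and 2.49% in the controls, and 2.23% and 2.12% after Nr2f1/Nr2f2 siRNA. The groups overlap, since siRNA library A lies above control library A. The means were 2.35% ± 0.200 (SD, n = 2) and 2.18% ± 0.0779 (SD, n = 2), and the smallest two-sided p that an exact permutation test can give with 2 against 2 is 0.333. Members with Rpl or Rplp symbols were also set against those with Rps symbols, stalk genes and paralogs included. Counts of the first were 1.72 and 1.68 times those of the second in the control libraries. In the siRNA libraries they were 1.82 and 1.84 times. In that ratio both siRNA libraries lie above both controls, which was not tested and has the same limit of 2 against 2.

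The knockdown and the identity of the cells were checked in the same libraries. Nr2f1 measured 226 and 208 CPM in the controls and 61.5 and 56.0 CPM in the siRNA libraries. Nr2f2 measured 296 and 282 CPM in the controls and 68.1 and 72.7 CPM in the siRNA libraries. Both targets were lower in every siRNA library, with log2 fold changes of −1.89 and −2.03. The CPM of cell type markers leave out the TMM factor that the other CPM include. The Schwann cell transcription factor Sox10 measured 672 and 706 CPM in the controls and 774 and 698 CPM in the siRNA libraries, and the neuregulin receptor Erbb3 656 and 643 CPM in the controls and 761 and 741 CPM in the siRNA libraries. Neither gene was called. Macrophage markers summed to 1.62 to 2.95 CPM, with Ptprc at 0 in all libraries. Of 6 fibroblast markers Dcn, Lum and Thy1 were at 0 in all libraries, while the collagen genes Col1a1 and Col3a1 that Schwann lines also make carried nearly all of that list's 12950 to 13647 CPM. One of 4 neuron markers was called higher, in a list that summed to 74.7 and 79.7 CPM in the controls and 109 and 90.0 CPM in the siRNA libraries, with Rbfox3 at 0.

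The levels per length differed widely among the members. In RPKM, the CPM divided by gene length in kilobases, the median member was at 475.7 and the median tested gene at 11.03, and 56 of the 67 were among the top 500 of all tested genes. The highest of the large subunit were Rpl41, the shortest ribosomal protein, at 2716 RPKM ± 396 (SD, n = 4 libraries), Rpl36 at 1182 RPKM ± 197 and Rpl13a, which also takes part in translational silencing, at 1020 RPKM ± 108. The SD of Rpl41 and Rpl36 does not bridge the gap between them, while Rpl36 and Rpl13a differ by less than the spread of Rpl36. The highest of the small subunit were Rps2, near the mRNA entry site, at 1323 RPKM ± 210, Rps15 at 933 RPKM ± 131 and Rps16 at 904 RPKM ± 146. The lowest of each subunit were Rpl8 at 23.2 RPKM ± 2.80 and the Rps4x row on chromosome 4 at 97.1 RPKM ± 2.02. These low levels are those of single rows of the table, and other rows carry the same protein, as described further on.

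**Figure D2:**
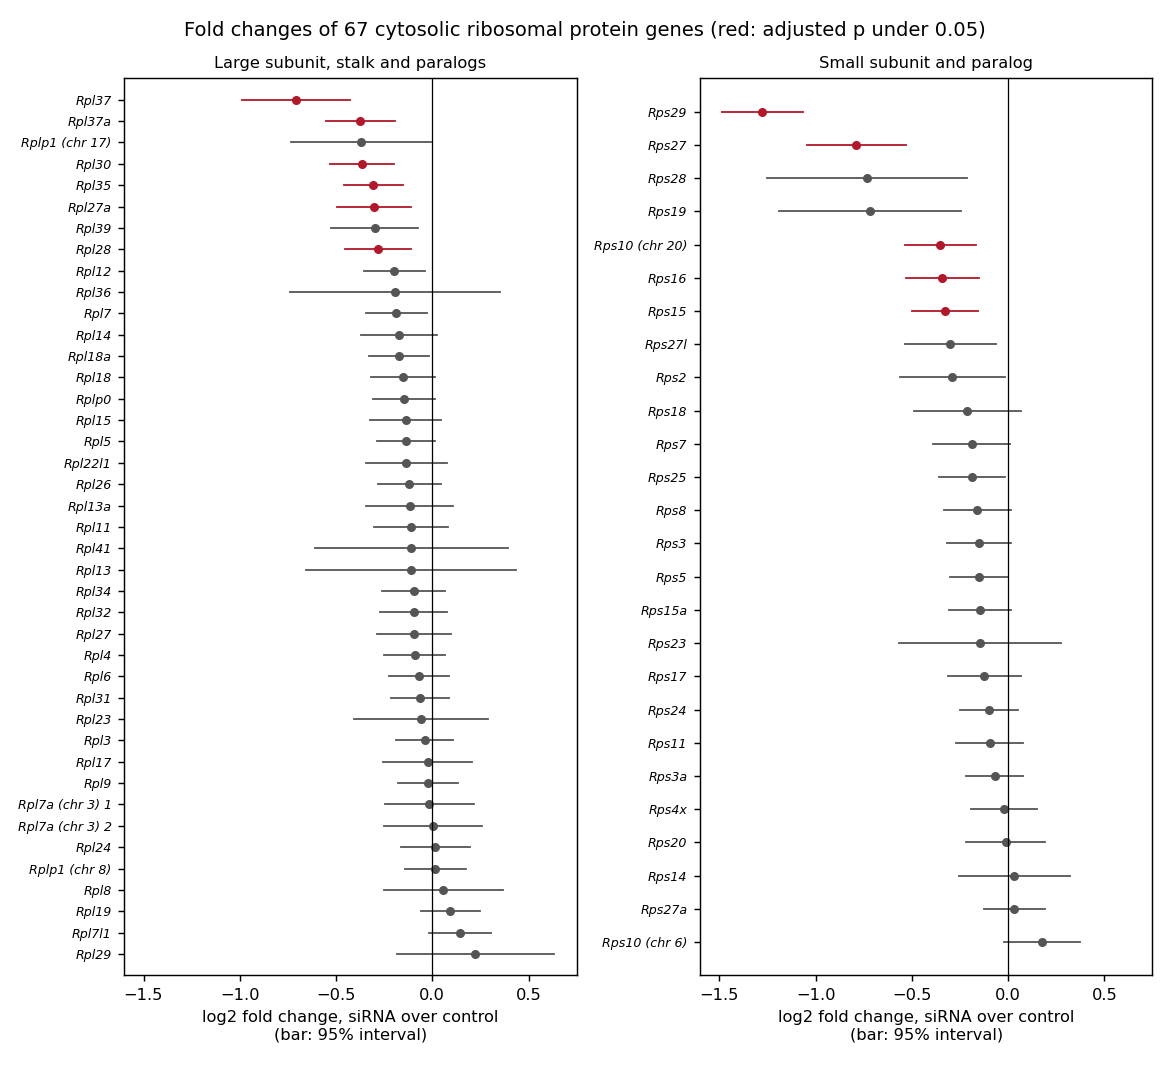
Log2 fold change (siRNA over control) with its 95% interval for each of the 67 ribosomal protein genes, ordered by value, with genes called lower marked. The values run from −1.28 to 0.22, and the 11 lower genes have intervals wholly below 0.

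Among the proteins of the small subunit, 25 genes were members, of which 5 were lower and 20 did not pass, with a median log2 fold change of −0.15. Rps29 had the largest change. It encodes a zinc-binding protein of the head of the small subunit, near the mRNA channel, and lies at chr6:91455333-91456696 on the minus strand in the coordinates of the deposited table, whose build is not named. Rps29 measured 205 and 228 CPM in the controls and 80.9 and 97.3 CPM in the siRNA libraries. Both siRNA libraries lay far below both controls, at 41.3% of the control level. The log2 fold change was −1.28 (SE 0.10), with an edgeR adjusted p of 6.8e-06. Leaving out any single library kept this call, with values from −1.42 to −1.16.

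Rps27 encodes another zinc-binding protein of the small subunit. Its level was 168 and 159 CPM in the controls and 82.2 and 107 CPM in the siRNA libraries. The groups were apart, and the 2 siRNA libraries differed from each other by more than the controls did. The log2 fold change was −0.79 (SE 0.11, edgeR adjusted p = 0.00154), and each leave-one-out fit kept the call. Rps27l, its paralog and a target of p53, measured 122 and 154 CPM in the controls and 117 and 107 CPM in the siRNA libraries. The siRNA libraries lay below the controls, but control library A was close to them, and the value of −0.30 did not pass (edgeR adjusted p = 0.0787). Among the alternative fits on all 4 libraries Rps27l passed only with DESeq2 (adjusted p = 0.0409) and with length offsets, described further on.

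The other lower genes of the small subunit, beyond the 5 largest falls, are named after their values were seen. Rps10, near the mRNA entry site and a target of the ubiquitin ligase ZNF598 on stalled ribosomes, measured 196 and 221 CPM in the controls and 172 and 155 CPM in the siRNA libraries. Rps16, whose tail reaches the tRNA in the P site, measured 750 and 905 CPM in the controls and 667 and 640 CPM in the siRNA libraries. Rps15, at the decoding site of the head, measured 557 and 589 CPM in the controls and 485 and 428 CPM in the siRNA libraries. For all 3 the siRNA libraries were below both controls, with control library B the highest. The log2 fold changes were −0.35, −0.34 and −0.33, with edgeR adjusted p of 0.0133, 0.0189 and 0.0128. Without siRNA library B none of the 3 passed (edgeR adjusted p 0.127, 0.0993 and 0.182), and Rps10 and Rps16 also failed without control library B (0.0759 and 0.113).

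A pair of small-subunit genes had larger changes than these and still did not pass, and both are named after their values were seen. Rps28, at the mRNA exit site, measured 112 and 159 CPM in the controls and 86.3 and 77.1 CPM in the siRNA libraries. Rps19, the gene most often mutated in Diamond-Blackfan anaemia, a failure of red cell production caused by loss of ribosomal proteins, measured 123 and 172 CPM in the controls and 94.9 and 85.2 CPM in the siRNA libraries. In both the siRNA libraries were below the controls, but control library B stood well above control library A. The log2 fold changes were −0.73 and −0.72, with edgeR adjusted p of 0.0772 and 0.0616. These values were −0.97 and −0.94 without control library A, and −0.47 and −0.47 without control library B. With 1 control library left, the spread between the controls is not measured, so passing such a fit says little. On all 4 libraries both genes passed with DESeq2 (adjusted p 0.0291 and 0.0255) and with the length offsets described further on. Neither passed without siRNA library A or without siRNA library B. Rps2 measured 1151 and 1416 CPM in the controls and 1134 and 968 CPM in the siRNA libraries, where siRNA library A lies just under control library A. Its log2 fold change of −0.29 did not pass (edgeR adjusted p = 0.141). Among the alternative fits of this row on all 4 libraries it passed only with DESeq2 (adjusted p = 0.0251) and with the length offsets. Rps27a, made as a fusion with ubiquitin, measured 253 and 237 CPM in the controls and 248 and 254 CPM in the siRNA libraries. The groups overlapped, with a log2 fold change of 0.03 and a 95% interval from −0.13 to 0.19. The Rps4x row on chromosome 4 also overlapped, with 93.0 and 97.3 CPM in the controls and 93.5 and 93.8 CPM in the siRNA libraries.

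Among the proteins of the large subunit, 35 genes were members, of which 6 were lower and 29 did not pass, with a median log2 fold change of −0.11. Rpl37 and Rpl37a encode zinc-binding proteins of this subunit. The Rpl37 row, at chr10:64336200-64336546 on the plus strand, spans as many bases as its length and so has no intron, unlike 64 of the other members, and it overlaps Vps53 on the opposite strand. It measured 29.1 and 38.1 CPM in the controls and 20.2 and 20.7 CPM in the siRNA libraries, which were below both controls. Its log2 fold change was −0.71 (SE 0.13, edgeR adjusted p = 0.00275), and each leave-one-out fit kept the call. Rpl37a measured 526 and 600 CPM in the controls and 413 and 454 CPM in the siRNA libraries, again with no overlap. The log2 fold change was −0.38 (SE 0.08, edgeR adjusted p = 0.00787), and it did not pass without siRNA library A (−0.31, adjusted p = 0.0729).

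Rpl30, which faces the small subunit, measured 209 and 218 CPM in the controls and 159 and 172 CPM in the siRNA libraries. Its groups were well apart, with close values within each group. The log2 fold change was −0.36 (SE 0.08, edgeR adjusted p = 0.00621), and without siRNA library A it did not pass (−0.31, adjusted p = 0.0641). A second row of the same protein, LOC100362027, measured 109 and 114 CPM in the controls and 111 and 111 CPM in the siRNA libraries. That row was at 99.5% of the control level.

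The remaining lower genes of the large subunit are named after their values were seen. Rpl35, at the exit of the peptide tunnel, measured 479 and 491 CPM in the controls and 402 and 382 CPM in the siRNA libraries. Rpl27a measured 413 and 451 CPM in the controls and 380 and 321 CPM in the siRNA libraries. Rpl28, a protein that budding yeast lacks, measured 238 and 248 CPM in the controls and 211 and 190 CPM in the siRNA libraries. In all 3 siRNA library B was the lowest and the groups did not overlap. The log2 fold changes were −0.31, −0.30 and −0.28 (edgeR adjusted p 0.00974, 0.0339 and 0.0264), and without siRNA library B none of the 3 passed (0.116, 0.340 and 0.274). Rpl27a and Rpl28 also failed without control library B (0.123 and 0.0860).

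**Figure D3:**
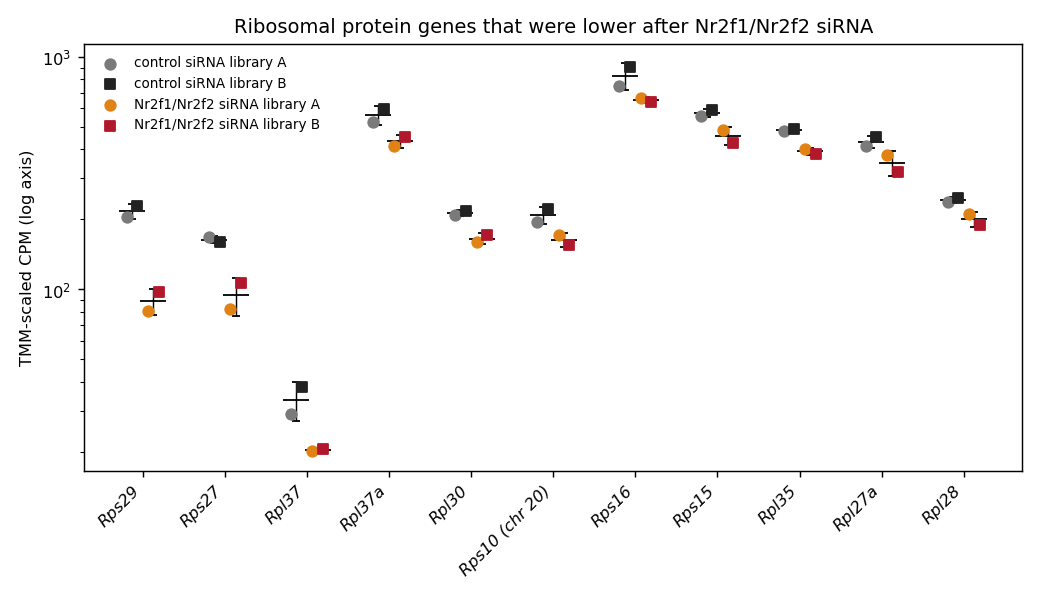
CPM on a log axis in each of the 4 libraries for the 11 ribosomal protein genes that were lower after Nr2f1/Nr2f2 siRNA, with the mean and SD of each group (n = 2) as bars. In each gene both siRNA libraries lie below both control libraries, with the widest gap in Rps29, at 205 and 228 CPM in the controls against 80.9 and 97.3 CPM.

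The 3 genes of the large subunit with the highest RPKM were not called, while Rpl35, next at 983 RPKM, was lower. Rpl41 measured 1051 and 1447 CPM in the controls and 1210 and 1106 CPM in the siRNA libraries, with a log2 fold change of −0.11. Rpl36 measured 339 and 462 CPM in the controls and 380 and 322 CPM in the siRNA libraries, with a log2 fold change of −0.19. Rpl13a measured 602 and 696 CPM in the controls and 654 and 543 CPM in the siRNA libraries, with a log2 fold change of −0.12. In Rpl41, Rpl36 and Rpl13a the siRNA libraries overlapped the controls and the sign depended on 1 library. Without control library A the log2 fold changes of Rpl41 and Rpl36 were −0.33 and −0.40. Rpl8 overlapped as well, at 15.4 and 19.7 CPM in the controls and 19.7 and 16.9 CPM in the siRNA libraries.

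Rpl39, a protein of the tunnel wall, and Rpl29 are named after their values were seen. Rpl39 measured 82.7 and 85.0 CPM in the controls and 60.3 and 75.3 CPM in the siRNA libraries, a log2 fold change of −0.30 that did not pass (edgeR adjusted p = 0.0655). It passed narrowly with limma-voom (adjusted p = 0.0482), with the older form of edgeR's quasi-likelihood fit and with length offsets, and not with DESeq2. Rpl29 measured 286 and 391 CPM in the controls and 386 and 405 CPM in the siRNA libraries. Control library A alone was low, and the log2 fold change was 0.22 (edgeR adjusted p = 0.406). Without control library B it became 0.46 with an adjusted p of 0.00212, the single higher call under any setting tried.

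Rpl5 and Rpl11 carry the 5S rRNA into the large subunit and, when free, bind the p53 regulator Mdm2. Rpl5 measured 399 and 399 CPM in the controls and 361 and 365 CPM in the siRNA libraries, which lay below with very little spread in either group. Its log2 fold change of −0.14, with a 95% interval from −0.29 to 0.01, did not pass (edgeR adjusted p = 0.200). Rpl11 measured 188 and 222 CPM in the controls and 197 and 182 CPM in the siRNA libraries, and the groups overlapped. Of the 7 tested genes for the 5S particle and its partners 3 were lower. Among all tested genes 10% were lower, and among those above 100 CPM 18.8%. The 3 called here were assembly partners and not ribosomal proteins. They were Heatr3, an import factor of Rpl5 (log2 fold change −0.40), and the loading factors Rpf2 (−0.42) and Rrs1 (−0.40). Leaving out control library A, control library B or siRNA library B gave 1 lower call in this list, and DESeq2 also called 1.

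The stalk binds the translation factors that drive elongation. None of its 4 rows passed the test, and without control library A the Rplp1 row on chromosome 17 did. Rplp0, the stalk's scaffold, measured 1071 and 1178 CPM in the controls and 1044 and 989 CPM in the siRNA libraries, with a log2 fold change of −0.15 (95% interval −0.31 to 0.01). Rpl12, at the stalk base, measured 366 and 338 CPM in the controls and 306 and 309 CPM in the siRNA libraries, with a log2 fold change of −0.20 (edgeR adjusted p = 0.0827). In both genes the siRNA libraries lay below the controls. The main Rplp1 row, on chromosome 8, overlapped at 526 and 481 CPM in the controls and 502 and 518 CPM in the siRNA libraries, while the row on chromosome 17, at 12.02 and 17.2 CPM in the controls and 10.96 and 11.4 CPM in the siRNA libraries, did not. Its log2 fold change was −0.37 (edgeR adjusted p = 0.151).

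Paralogs can replace a core ribosomal protein in some tissues or states. Rpl22l1 overlapped, at 96.6 and 86.7 CPM in the controls and 76.3 and 90.4 CPM in the siRNA libraries. Rpl7l1 varied little within a group, at 131 and 132 CPM in the controls and 145 and 145 CPM in the siRNA libraries. Its log2 fold change of 0.14 had a 95% interval from −0.02 to 0.31 and did not pass (edgeR adjusted p = 0.212). Rpl36al is listed as a paralog, and its symbol falls outside the naming pattern. Its row with the most counts measured 101 and 101 CPM in the controls and 69.0 and 72.7 CPM in the siRNA libraries. That row was lower, with a log2 fold change of −0.51 (SE 0.08, edgeR adjusted p = 0.00106). It lies on chromosome X and has introns, and 2 rows carry this symbol. Whether it measures the paralog or the core gene was not tested. Rpsa and Fau, which also fall outside the pattern, were not called. Rpsa, the laminin receptor of the small subunit, had a log2 fold change of −0.13. Fau, a fusion with a ubiquitin-like protein, rested on 125 counts and had a value of 0.06.

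**Figure D4:**
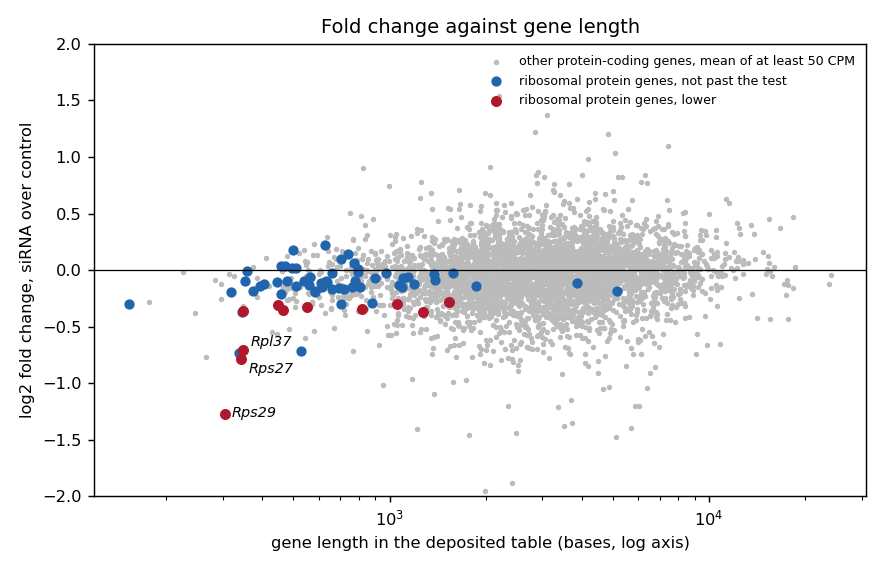
Log2 fold change against gene length for the ribosomal protein genes and for 4177 other protein-coding genes of at least 50 CPM, with length on a log axis; 3 other genes lie beyond the vertical axis. The members of at most 400 bases have a median of −0.33, and the short genes outside the family one of −0.13.

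The lower genes had a median length of 465 bases against 634 bases for the members not called, but they did not all lie among the short ones: Rpl28, Rpl37a, Rpl27a and Rps16, at 1531, 1269, 1057 and 819 bases, were longer than that second median. Among the 12 members of at most 400 bases 4 were lower and the median log2 fold change was −0.33. Among 13 other protein-coding genes of that length above 50 CPM 2 were lower, with a median of −0.13. This cut was applied to the other genes in every length range and not to the members. Rpl37, one of the short lower members, lies under it at 29.1 and 38.1 CPM in the controls. From 400 to 600 bases 3 of 19 members were lower with a median of −0.12, and 7 of 55 other genes with one of −0.14. From 600 to 1000 bases 1 of 22 members was lower (median −0.10) and 15 of 149 others (median −0.06). From 1000 to 2000 bases 3 of 12 members and 177 of 919 others were lower. With an offset for length in the fit, chosen after the data were seen, 16 members were lower and all 11 stayed.

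Many ribosomal protein genes have copies elsewhere in the genome, mostly without introns, and how reads that match several copies were counted is not given. Of the members, 56 have another row described as the same protein, and 3, the Rpl37 row, the Rps4x row and the Rps10 row on chromosome 6, have no intron. Rows of one protein can move apart. The Rps10 row on chromosome 20 was lower. That on chromosome 6 measured 64.4 and 64.1 CPM in the controls and 77.9 and 67.6 CPM in the siRNA libraries. It was higher in both, with a log2 fold change of 0.18 that did not pass. A low row of the same protein, LOC100361240, was called lower (−0.85, edgeR adjusted p = 0.0218). RGD1559972, a low row of the Rpl27a protein, was called higher (0.66, edgeR adjusted p = 0.0461), while Rpl27a itself was lower. When all rows of a protein were summed, an alternative added after the data were seen, 11 proteins were lower and 0 higher. S19 was then lower (−0.53, edgeR adjusted p = 0.0168), S10 was not (−0.22, 0.0905) and L30 was (−0.23, 0.0418). The main gene held over 98% of its protein's counts for S29, S27, L37A, S16, S15, L35 and L27A. Copies, and 19 members that share an interval with another gene of at least 20 counts, mostly snoRNA genes inside introns, make single-row values uncertain.

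**Figure D5:**
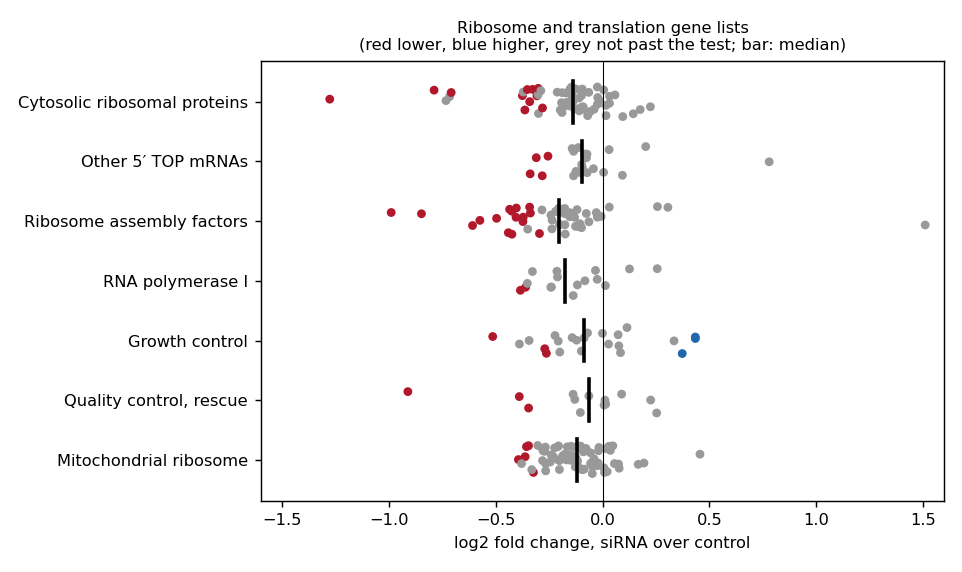
Log2 fold changes of the genes of 7 lists, with each list's median as a bar and genes called lower in red and higher in blue; 1 mitochondrial ribosomal protein gene that did not pass lies beyond the axis at 3.68. The median of the ribosome assembly factors is −0.20 and that of the 67 ribosomal protein genes −0.14, against 0.01 over all tested genes.

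The genes that make and use ribosomes were looked at alongside. Some lists share genes, so their counts are not separate observations. Rpf2 and Rrs1, both lower, are in the 5S list and among the assembly factors. Tsr2, also lower, is counted as an assembly factor and as a Diamond-Blackfan anaemia gene. Among all tested genes 10% were lower, and among those above 100 CPM 18.8%. Of 50 tested ribosome assembly factors 16 were lower and 0 higher, with a median log2 fold change of −0.20. Without siRNA library B 7 were lower. The smallest adjusted p belonged to Tcof1, Nop2, Mrto4 and Nop58. Tcof1, or treacle, which drives rRNA gene transcription, measured 111 and 112 CPM in the controls and 63.0 and 61.0 CPM in the siRNA libraries. The values hardly varied within a group, and the log2 fold change was −0.85 (SE 0.08). Nop2, an rRNA methyltransferase, had a log2 fold change of −0.50. Mrto4, which places the stalk, had one of −0.57, and Nop58, a core protein of box C/D snoRNPs, one of −0.40.

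Of 16 tested genes of the RNA polymerase I machinery 2 were lower, the subunit genes Polr2f (−0.38) and Polr1b (−0.36), and without siRNA library B 0 were. That share is near the 10% of all tested genes that were lower. The same background holds for the TOP and mitochondrial lists. Most genes of the TOP list lie above 100 CPM, where 18.8% of tested genes were lower. Other mRNAs with a 5′ TOP tract, mostly translation factors, were lower in 4 of 22 cases with a median of −0.10. They were Eef1d (−0.34), a subunit of the elongation factor exchange complex, the nucleolar chaperone Npm1 (−0.31), the histone chaperone Nap1l1 (−0.28) and the RNA-binding protein Hnrnpa1 (−0.26). Leaving out control library A, siRNA library A or siRNA library B gave 2, 1 and 2 lower calls in this list. Of 72 tested mitochondrial ribosomal protein genes 5 were lower and 0 higher, with a median of −0.12, and without any one of control library B, siRNA library A and siRNA library B 1 was lower.

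Of 23 tested genes that set the supply of ribosomes 3 were higher and 3 lower, near the 8.05% and 10% of all tested genes. Deptor, an inhibitor of mTOR, was lower at 261 and 270 CPM in the controls and 198 and 175 CPM in the siRNA libraries (log2 fold change −0.51). Mxd4, an antagonist of MYC, was higher at 163.3 and 161.1 CPM in the controls and 225 and 213 CPM in the siRNA libraries (0.43). Mxd1, of the same family, was higher by 0.43, and Maf1, a repressor of RNA polymerase III, by 0.37. Larp1, the TOP-binding protein, and Eif4e, the cap-binding factor, were lower by small margins, with log2 fold changes of −0.26 and −0.27. Leaving out control library A or siRNA library B left 1 lower call in this list.

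In ribosome quality control 3 of 13 tested genes were lower and 0 higher. Of all tested genes 10% were lower and 8.05% higher, and of those above 100 CPM 18.8% were lower and 8.50% higher. G3bp1, the stress granule nucleator, measured 305 and 300 CPM in the controls and 170 and 152 CPM in the siRNA libraries. The groups were far apart, with a log2 fold change of −0.91 (SE 0.08). Its partner Usp10, which removes ubiquitin from stalled small subunits, had a log2 fold change of −0.39, and the rescue factor Pelo one of −0.35. Of the 22 tested Diamond-Blackfan anaemia genes, 20 of which are members, 5 were lower: Rps29, Rps27, Rpl35, Rps10 and Tsr2, the chaperone of Rps26. Without siRNA library B 2 were. Among 10 promoter-binding factors of ribosomal protein genes 1 was lower, E2f1 (−0.76), the same share as the 10% of all tested genes. These lists were chosen with earlier results of the data known, and nothing is called particular to any of them.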

How the data were processed

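Polyadenylated RNA of 4 S16 libraries was sequenced on a NovaSeq instrument, per the labels' protocols. The authors deposited whole-number read counts per rat gene. HISAT2, featureCounts 1.5.0-p3 and DESeq2 1.20.0 were used, per the submitters' processing notes. Genome build, strand use and handling of multi-mapping reads: not given in the sources used here. The log2 fold changes and p-values of the authors' deposited comparison table were copied only where named, and 12 per-library and 2 group-mean columns of that table were not used.

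Counts, 21556011 to 43057750 per library, were analysed with edgeR 4.0.16 in R 4.3.3: filterByExpr (13018 genes), TMM scaling, group as the only term, a robust quasi-likelihood fit and Benjamini-Hochberg adjustment over all tested genes (threshold 0.05). Standard errors came from the F statistic and 95% intervals from the moderated degrees of freedom. The fit was tested on simulated data. CPM used library size and TMM factor, except for cell type markers (library size alone), and RPKM divided CPM by the deposited gene length. With 2 libraries a group, precision is limited by replication more than by depth. Alternatives were other scalings, filters, DESeq2 1.42.0, limma-voom 3.58.1, thinning, loess and length offsets, sums per protein and leaving out each library. Promoter windows came from RefSeq (GRCr8) by symbol.

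The members and lists were chosen with earlier results of these data known. Genes named by rule were the siRNA targets, the 5 largest called rises and falls, the 3 highest and the lowest member of each subunit per length, the stalk, 5S, ubiquitin-fusion and paralog genes, the 3 members on each side of the count minimum, and up to 4 genes with the smallest adjusted p in each companion list. Results for some listed genes are not reported here.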

Additional observations from a re-analysis of the deposited data

How the results depend on the processing

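Leaving out 1 library gave 6 to 19 lower genes of the 67: 19 (control A out), 9 (control B), 10 (siRNA A) and 6 (siRNA B), which kept 11, 7, 9 and 5 of the 11 calls. The higher count was 0 in every fit except 1 (Rpl29) with control library B out. Other scalings, filters, DESeq2, limma-voom and thinning gave 8 to 15 lower genes, with 8 under loess offsets and 9 under library size alone. Calls over all companion lists, 36 lower and 3 higher, became 16 to 29 lower and 2 to 5 higher with 1 library out, and the higher count was 5 under upper-quartile scaling, loess offsets and DESeq2 and 7 under library size alone. These companion counts take each gene once where lists share it and leave out the 67 members. Library size alone moved the median over all tested genes from 0.01 to 0.06 (log2). The difference in the share of counts, −0.167 percentage points, ranged from −0.308 (control A out) to −0.0258 (control B out). Signs of genes that were not called turned when 1 library was left out. The log2 fold change ranged from −0.33 to 0.13 for Rpl41, from −0.26 to 0.0067 for Rpl13a, from −0.40 to 0.038 for Rpl36, from −0.23 to 0.0036 for Rpl11, from −0.058 to 0.0016 for Rps4x, from −0.054 to 0.079 for Rplp1 (chromosome 8), from −0.022 to 0.078 for Rps27a, from −0.12 to 0.23 for Rpl8 and from −0.18 to 0.28 for Fau. Rps4x was at 0.011 under upper-quartile scaling, 0.029 under library size alone and 0.018 under loess offsets, where Fau was at −0.15. The cause was not tested. No paired analysis was possible because the columns of the 2 groups share only 1 number, and those numbers do not match the replicate numbers of the sample titles.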

Other observations

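Several core ribosomal protein genes are nearly empty under their own symbol. Rpl10a and Rpl23a are listed with 0 counts in all libraries, Rplp2 with 22 and Rps6 with 560, although each encodes a core protein of the cytosolic ribosome. Rows under symbols outside the naming pattern were not counted as members.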
